A study of Macaca mulatta and Mus musculus with 5 samples.

Results

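Secreted cytokines and growth factors were followed through 7 genes, IL1B, LTA, CCL3, XCL1, CCL20, VEGFA and AREG, of the 14949 genes found in at least 1 of the macaque tables. They had been picked with their levels in meninges and spleen known, so the difference between the tissues is described for them without a p-value. The marker gates that sort cells into classes used none of these genes, so their spread over the classes was tested. Genes and markers were both chosen with earlier results of these data known, so the tests are not independent of that choice. The cells came from the meninges and the spleen of female Chinese rhesus macaques aged 4 to 8 years, profiled by 10x 3′-end single-cell RNA sequencing in 2 channels per tissue with 8000 cells loaded in each. The labels name no treatment, mutation or transgene for either tissue. Whether the channels hold different or pooled animals is not labelled either, so the p-values below cover the spread between channels alone, and that spread may be technical. The sort is written CD45–CD11b–CD3–, and it is not clear from the label whether the dash that follows CD45 means negative.

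Cytokines are short-range protein signals that cells release in small amounts, often from a few cells at a time. Interleukin-1 beta (IL1B) is an inflammatory cytokine made as a precursor that inflammasomes help to cut, and lymphotoxin alpha (LTA) is a TNF-family cytokine that lymphocytes use to organise lymphoid tissue. CCL3, XCL1 and CCL20 are chemokines, small proteins that steer leukocytes along gradients. XCL1 acts through the receptor XCR1, and CCL20 through CCR6. VEGFA drives the growth and permeability of blood vessels, and amphiregulin (AREG) is a ligand of the epidermal growth factor receptor known for tissue repair. The meninges wrap the brain and hold resident macrophages, dendritic cells and lymphocytes, whereas the spleen is a lymphoid organ rich in B cells.

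After filtering, the meningeal channels held 4029 and 4269 cells with medians of 4078 and 4024 unique molecular identifiers (UMIs, counted RNA molecules) per cell, and the spleen channels held 5839 and 6783 cells with medians of 2404 and 2668 UMIs. Levels are given as CPM, a gene's UMIs scaled to one fixed total for the cells summed, and 95% intervals cover counting error only. PTPRC, the gene of CD45, had a UMI in 85.8 and 86.9% of cells in meninges and in 87.9 and 85.1% in spleen. CD3E, a T cell gene, had one in 23.9 and 23.4% of meningeal cells against 3.22 and 3.79% of spleen cells, and ITGAM, the gene of CD11b, in 4.22 and 4.22% against 1.22 and 1.14%, so cells with RNA of the sorted-out markers remained. Any pair of libraries shared 4 to 11 cell barcodes. Immediate early genes switch on within minutes of a stimulus, tissue dissociation included, and 13 of them summed to 6059.3 and 6210.6 CPM in meninges and 496.5 and 534.0 CPM in spleen. Their part in the tissue differences below was not tested.

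Each cell was gated to the class of which it expressed the most of 8 marker genes. B-lineage cells made up 44.9 and 44.6% of the meningeal channels and 86.2 and 85% of the spleen channels, and T and NK lymphoid cells 36.8 and 35.9% against 6.63 and 7.45%. Myeloid cells numbered 221 and 224 in the meningeal channels and 8 and 8 in the spleen channels, and dendritic cells 14 and 18 against 5 and 13. The myeloid gate carried its markers in meninges, with CFD in 95 and 97.8% and CSF1R in 77.4 and 79.9% of its cells. Another 6.97 and 7.43% of cells in meninges and 3.56 and 3.20% in spleen showed fewer than 2 markers of any class and stayed ungated.

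Over all cells, 6 of the 7 genes were higher in meninges and LTA was lower. IL1B reached 223.1 and 217.6 CPM in the meningeal channels against 1.29 and 2.18 CPM in the spleen channels, and XCL1 reached 231.0 and 271.2 CPM against 11.5 and 7.82 CPM. CCL3 stood at 106.1 and 98.0 CPM in meninges and 14.4 and 10.8 CPM in spleen. These 3 inflammatory genes were the most abundant of the set in meninges.

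The growth factors were less abundant. AREG had 48.8 and 45.3 CPM in meninges against 1.99 and 1.96 CPM in spleen, and VEGFA 22.3 and 25.6 CPM against 3.03 and 3.09 CPM. CCL20 had 5.51 and 2.21 CPM in meninges, and neither spleen table lists it. A gene enters a table from 3 cells upwards, so fewer than 3 cells of each spleen channel could hold a CCL20 UMI, and no fold is given. LTA ran the other way, with 13.2 and 14.1 CPM in meninges against 57.0 and 58.6 CPM in spleen.

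**Figure D1:**
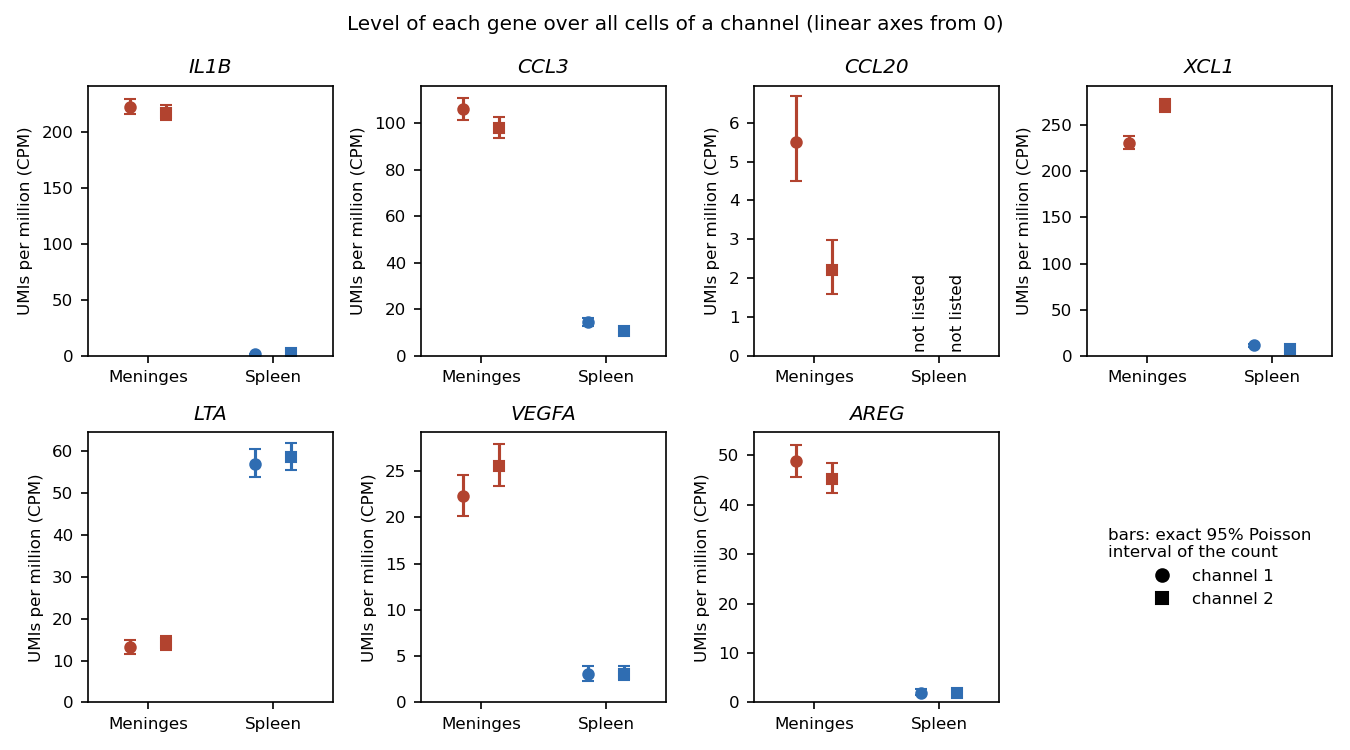
CPM of each of the 7 genes over all cells of a channel, with meninges (red) left of spleen (blue), circles for channel 1, squares for channel 2 and bars for the exact 95% Poisson interval of the count. The meningeal points lie above those of spleen for IL1B, CCL3, XCL1, VEGFA and AREG, CCL20 is not listed in spleen, and for LTA they lie below, where they are 13.2 and 14.1 against 57.0 and 58.6 CPM.

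As a description of the contrast that chose the genes, the edgeR estimates of meninges over spleen on the log2 scale were 7.01 ± 0.15 (SE) for IL1B, 4.75 ± 0.14 for XCL1, 4.61 ± 0.10 for AREG, 3.07 ± 0.11 for CCL3, 3.01 ± 0.13 for VEGFA and -2.04 ± 0.09 for LTA. All 7 genes were called, among 58.2% of all genes tested, of which 31.1% were called higher and 27.1% lower in meninges. Nothing is read from that count, because the genes were chosen on this contrast. Mean levels by tissue were 220.4 ± 3.89 against 1.74 ± 0.629 CPM for IL1B, 251.1 ± 28.4 against 9.65 ± 2.59 CPM for XCL1, and 13.7 ± 0.62 against 57.8 ± 1.09 CPM for LTA (SD, n = 2 channels in each tissue). In meninges the mean levels ran, from high to low, XCL1, IL1B, CCL3, AREG, VEGFA, LTA and CCL20. XCL1 and IL1B, at the top, were closer to each other in channel 1 (231.0 and 223.1 CPM) than the XCL1 values of the channels were (231.0 and 271.2 CPM). Levels of different genes are compared here on 3′-end counts, which do not grow with gene length.

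The 7 genes fell into 3 patterns by class. In meninges IL1B lay in myeloid and dendritic cells. CCL3, XCL1, CCL20 and, in meninges, the largest share of VEGFA lay in T and NK lymphoid cells. Most UMIs of LTA and AREG lay in B-lineage cells. The class with the largest share of UMIs was the same in both tissues for CCL3, XCL1, LTA and AREG and differed for IL1B and VEGFA, with the gates used here.

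**Figure D2:**
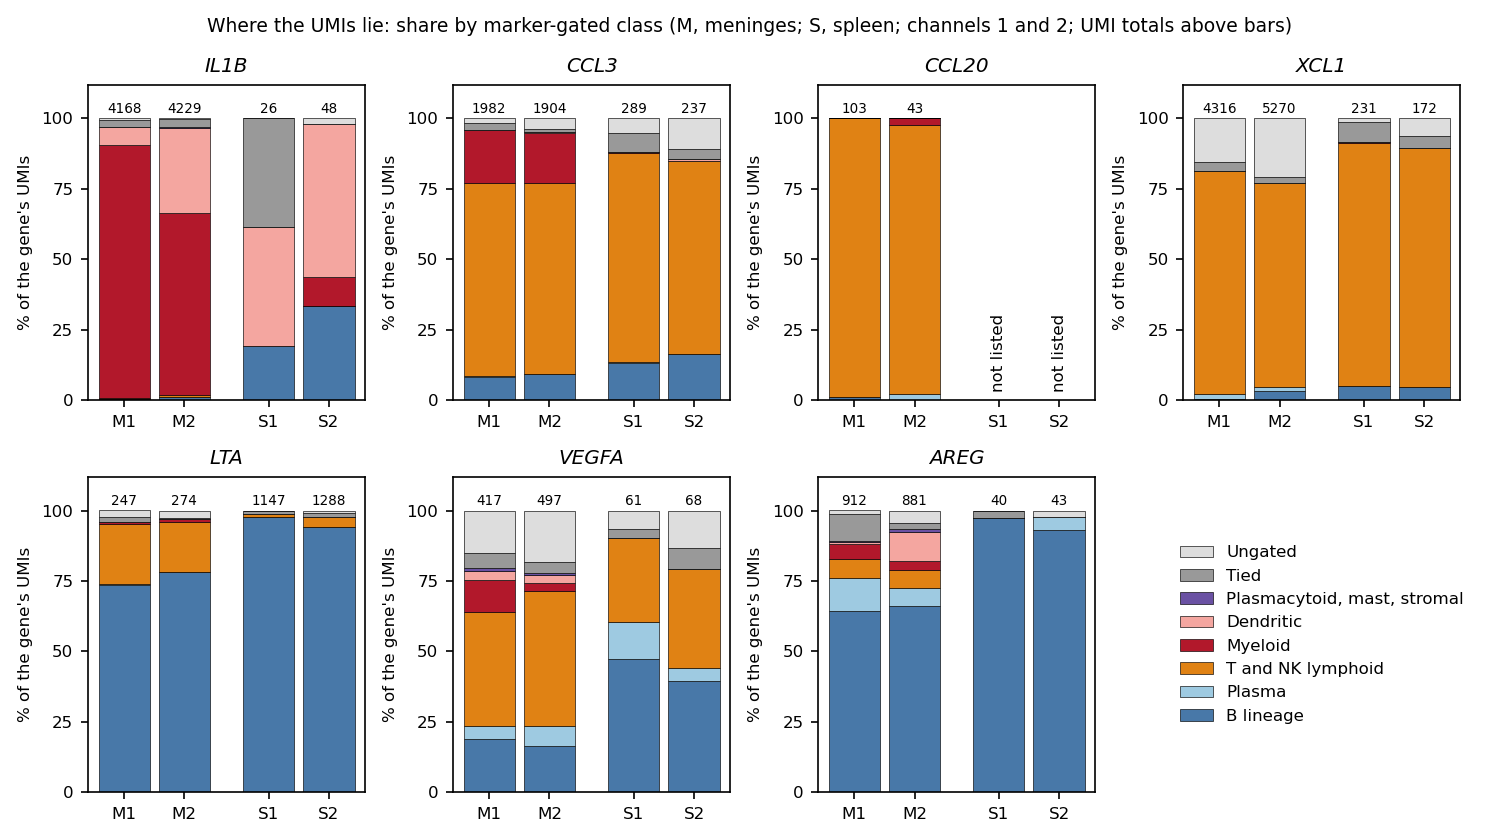
Share of each gene's UMIs in each marker-gated class, as stacked bars for meninges channels 1 and 2 (M1, M2) and spleen channels 1 and 2 (S1, S2), with the number of UMIs above each bar. Myeloid cells hold 89.6 and 64.7% of IL1B UMIs in meninges, lymphoid cells hold 68.4 and 67.7% of CCL3 UMIs, and B-lineage cells hold 64.4 and 66.1% of AREG UMIs.

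**Figure D3:**
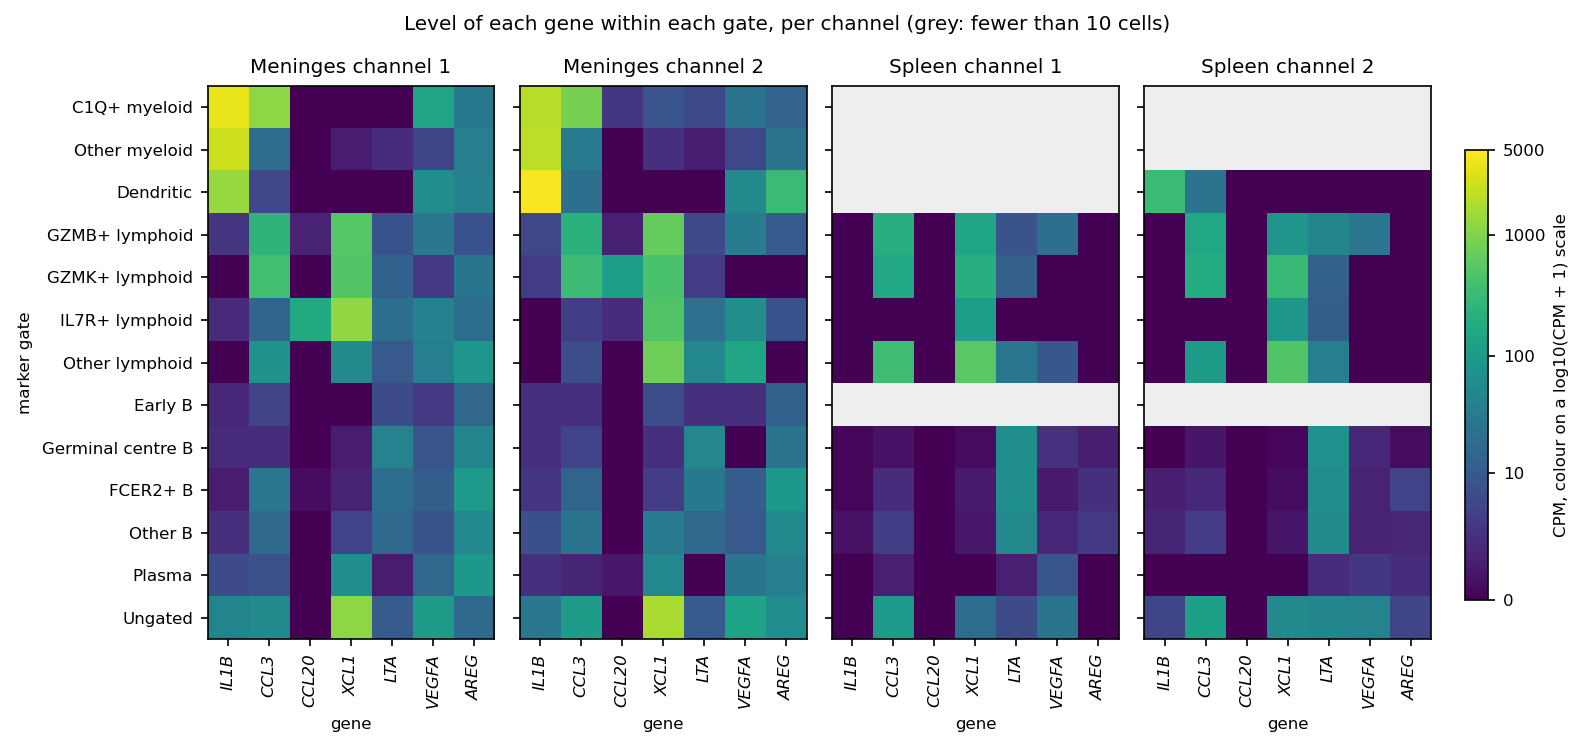
CPM of each gene (columns) within each marker gate (rows), 1 panel per channel with the meningeal channels left of the spleen channels, coloured on a log10(CPM + 1) scale, with gates of fewer than 10 cells in grey. IL1B is brightest in the myeloid and dendritic rows of meninges, XCL1 in the lymphoid and ungated rows, and LTA in the B-cell rows of spleen.

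IL1B was made by the myeloid cells of the meninges. The C1Q+ myeloid cells, which express the complement genes C1QB and C1QC typical of tissue macrophages, had 3630.9 and 2012.1 CPM, and the other myeloid cells had 2594.6 and 2150.9 CPM. Both gates stood above the mean of the other meningeal gates in the quasi-likelihood test of edgeR, adjusted by Benjamini-Hochberg over all genes and gates (adjusted p = 3.55e-33 for C1Q+ and adjusted p = 1.77e-34 for other myeloid cells), where 19.2 and 24.8% of genes were called higher in these gates. No other meningeal gate was called higher for IL1B.

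The IL1B signal was spread differently in the 2 meningeal channels. Myeloid cells held 89.6% of its UMIs in channel 1 and 64.7% in channel 2, and dendritic cells 6.38 and 30.0%. The 14 and 18 dendritic cells averaged 1357.7 and 4619.6 CPM, too few cells for the test between gates, and without the highest cell of each channel they averaged 842.2 and 3606.0 CPM. After every cell was thinned to 1000 UMIs, IL1B was found in 62.8 and 64.1% of other myeloid cells and in 39.7 and 38.3% of C1Q+ myeloid cells, against 0.118 and 0.453% of B-lineage cells, which are not known as IL1B makers. Unthinned, these shares were 86.6 and 90.1% and 53.1 and 49.2% in the myeloid gates.

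Spleen gave 26 and 48 IL1B UMIs in all. Dendritic cells held 42.3 and 54.2% of them, at 1073.5 and 327.8 CPM over only 5 and 13 cells, and their mean share of 48.2% went to 17.2% with gates read from thinned cells. B-lineage cells held 19.2 and 33.3% and tied cells 38.5 and 0%, and the 8 and 8 spleen myeloid cells gave 0 and 5 UMIs. The number of gated myeloid cells, 221 and 224 in meninges against 8 and 8 in spleen, thus moved with IL1B between the tissues. CD11b, a myeloid marker, is part of the labelled sort, and the part of these cell numbers in the difference was not tested.

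CCL3, a chemokine of cytotoxic lymphocytes and macrophages, had its largest share in lymphoid cells in both tissues. Myeloid cells came next in meninges, with 18.7 and 17.8% of its UMIs, and B-lineage cells in spleen, with 13.1 and 16.5%. GZMB+ lymphoid cells, gated on the gene of the killing enzyme granzyme B, held 61.8 and 62.3% of its UMIs in meninges and 56.7 and 58.6% in spleen. Their level was 254.7 and 238.6 CPM in meninges against 216.0 and 160.0 CPM in spleen. The highest cell alone gave 45 of the 164 UMIs in spleen channel 1, and without it the spleen level there was 156.7 CPM.

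The highest CCL3 level in meninges was in another gate. C1Q+ myeloid cells had 1160.7 and 876.2 CPM, GZMK+ lymphoid cells 374.3 and 339.8 CPM, and B-lineage cells 18.1 and 19.1 CPM. By edgeR against the mean of the other gates, CCL3 was higher in C1Q+ myeloid (adjusted p = 1.89e-26), GZMB+ lymphoid (adjusted p = 1.25e-20) and GZMK+ lymphoid cells (adjusted p = 8.66e-17) of meninges, where 19.2, 21.4 and 12.7% of all genes were called higher in the same gates. In spleen edgeR placed it higher in GZMB+ (adjusted p = 1.27e-47), other (adjusted p = 6.45e-23) and GZMK+ lymphoid cells (adjusted p = 1.34e-14), against 20.5, 4.49 and 4.67% of genes. CCL3 belongs to a family of near-identical genes, so reads could be split among copies and its level is uncertain.

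Within C1Q+ myeloid cells CCL3 was found in a smaller share of the cells with IL1B than of those without it. In cells thinned to 1000 UMIs, CCL3 was found in 13.0 and 13.0% of the 23 and 23 IL1B-positive cells and in 25.7 and 24.3% of the IL1B-negative ones, with 3 and 3 cells positive for both. These counts are small and the difference was not tested. The most CCL3-rich cells were again in that gate, with 80 UMIs in 1 cell of meninges channel 1 and 120 in 1 cell of channel 2.

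XCL1, the ligand that draws XCR1-positive dendritic cells, was a product of lymphoid cells in both tissues. These held 78.8 and 72.4% of its UMIs in meninges and 86.1 and 84.9% in spleen. With gates read from thinned cells the mean in meninges was 42.6%, against 75.6% here. In meninges the level was 533.1 and 666.6 CPM in GZMB+, 517.4 and 431.5 CPM in GZMK+ and 1255.2 and 494.6 CPM in IL7R+ lymphoid cells. In spleen the same gates had 152.8 and 85.2, 205.0 and 311.2, and 117.7 and 91.2 CPM.

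The 4 lymphoid gates of meninges stood above the mean of the other gates by edgeR, with adjusted p = 2.25e-17 for IL7R+ (16.0% of genes called higher), 2.48e-17 for GZMB+ (21.4%), 1.74e-10 for GZMK+ (12.7%) and 2.78e-07 for other lymphoid cells (7.36% of genes). In spleen the other lymphoid (adjusted p = 1.06e-43), GZMB+ (adjusted p = 7.29e-37) and GZMK+ cells (adjusted p = 6.75e-24) were called by the same edgeR test, against 4.49, 20.5 and 4.67% of genes. Plasma cells of meninges were also called (edgeR adjusted p = 0.0123, 22.8% of genes), but 75 of their 77 UMIs in channel 1 and 44 of 74 in channel 2 came from 1 cell each, and with gates from 3 markers the log2 value was -2.36. After thinning, XCL1 was found in 16.4 and 18.5% of GZMB+ lymphoid cells in meninges against 7.48 and 7.78% in spleen, and in 0.296 and 0.680% against 0.0611 and 0.0224% of B-lineage cells. XCL1 may also have a near-identical copy whose reads the counting could split.

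Ungated cells held 15.6 and 20.9% of the XCL1 UMIs of meninges, at 1167.7 and 1670.7 CPM, against 1.30 and 6.40% in spleen. The 34 and 42 meningeal ungated cells with an XCL1 UMI had medians of 3904.5 and 5016 UMIs, so they were not shallow. TYROBP, an adapter of activating receptors, was found in 88.2 and 88.1% of them, TNFRSF18 in 67.6 and 59.5%, IL7R, the interleukin-7 receptor gene, in 58.8 and 57.1%, and KIT in 44.1 and 42.9%. CD3E was found in 0 and 0% and NKG7 in 17.6 and 23.8%. KLRB1 was found in 64.7 and 57.1%, LTB in 64.7 and 73.8%, IL2RB in 47.1 and 61.9%, GZMB in 32.4 and 40.5% and the B-cell gene MS4A1 in 29.4 and 16.7%. Of these genes CD3E and NKG7 are on the lymphoid marker list, KIT on the mast cell list and MS4A1 on the B-lineage list. No single list covers the combination, and the cells are left without a class name. VEGFA was found in 17 of the 34 and 19 of the 42 cells, against 0.81 and 1.45% of the ungated cells without XCL1, which had medians of only 952 and 871 UMIs.

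The GZMB+ gate mixed cells with and without UMIs of the CD3 genes, and the levels of XCL1 and VEGFA were higher in those without. In meninges the 179 and 219 cells lacking a CD3 UMI had 1984.5 and 2359.2 CPM of XCL1, against 276.7 and 321.9 CPM in the 1046 and 1075 cells with one. XCL1 UMIs were found in 62.0 and 60.7% of the first against 20.8 and 19.8% of the second. The medians per cell were close, at 4057 and 3772 against 3767.5 and 3770 UMIs.

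VEGFA followed the same split, with 145.5 and 164.1 CPM in meningeal GZMB+ cells without CD3 against 9.06 and 9.93 CPM in those with it. In spleen the cells without CD3 had 54.0 and 67.4 CPM of VEGFA and 231.6 and 122.2 CPM of XCL1. Spleen cells with CD3 had 6.00 and 12.7 CPM of VEGFA and 111.9 and 71.3 CPM of XCL1. By number, the XCL1 UMIs of spleen were 60 and 29 in cells without CD3 against 56 and 45 in cells with it. CCL3 differed less, with 340.9 and 357.9 against 239.5 and 214.3 CPM in meninges and 312.7 and 172.8 against 165.9 and 155.2 CPM in spleen. The split was made by CD3 UMIs alone and was not tested. Some cells without a CD3 UMI may have missed one, above all in spleen, where medians were 1788 and 1733 UMIs without CD3 and 2383 and 1952 UMIs with it. Other cells may wrongly stand among those with CD3, since many B-lineage cells held a CD3 UMI (18.5 and 20.2% in meninges, 18.4 and 19.8% in spleen). Outside the lymphoid gate this was mostly CD3D, found in 13.2 and 14.2% of cells in meninges and 16.8 and 18.5% in spleen. CD3E was found there in 1.26 and 1.13% against 0.642 and 0.526%, and CD3G in 4.28 and 4.71% against 2.9 and 2.47%. CD3D thus marked T cells poorly here, and its part in the split was not tested.

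**Figure D4:**
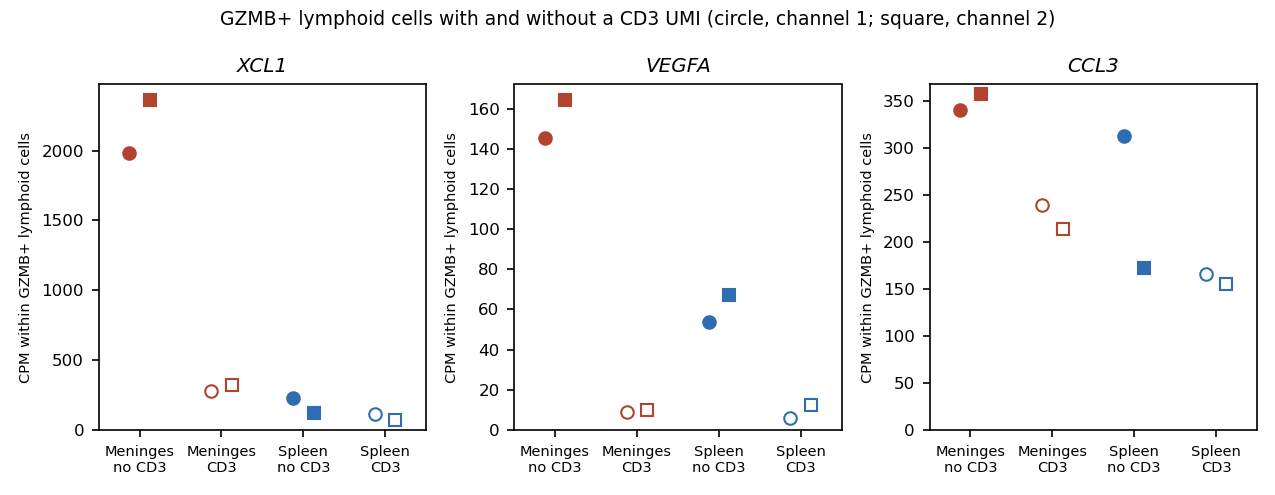
CPM of XCL1, VEGFA and CCL3 in GZMB+ lymphoid cells without (filled) and with (open) a UMI of a CD3 gene, with meninges left of spleen, circles for channel 1 and squares for channel 2. XCL1 reaches 1984.5 and 2359.2 CPM in meningeal cells without CD3 against 276.7 and 321.9 CPM in those with it.

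XCL1 and VEGFA were also found together in single cells. The cells counted here were pooled over those with and without a CD3 UMI, so that split and a link within cells cannot be told apart. Among meningeal GZMB+ lymphoid cells thinned to 1000 UMIs, VEGFA was found in 6.25 and 6.67% of XCL1-positive cells against 0.916 and 1.31% of XCL1-negative ones, that is, in 12 and 15 cells with both. CCL3 was found in 18.8 and 16.9% of XCL1-positive against 12.3 and 10.8% of XCL1-negative cells. In spleen VEGFA and XCL1 were both found in 1 and 3 thinned cells, which is too few to compare.

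CCL20, the CCR6 ligand, rested on single cells. It was found in 10 of 4029 and 10 of 4269 meningeal cells, and 1 cell held 82 of 103 UMIs (79.6%) in channel 1 and 33 of 43 UMIs (76.7%) in channel 2. Without that cell the level was 1.12 and 0.515 CPM. The channel 1 cell was an IL7R+ lymphoid cell with 4512 UMIs in all and the channel 2 cell a GZMK+ lymphoid cell with 723 UMIs in all. The edgeR calls for these gates (adjusted p = 5.25e-09 for IL7R+ and adjusted p = 9.37e-06 for GZMK+) therefore rest on very few cells, and DESeq2 made neither. The lymphoid share of CCL20 UMIs was 29.2% with gates read from thinned cells, against 97.2% here. Both cells of channel 1 with 5 or more CCL20 UMIs also held UMIs of CD3D, CD3E, IL7R, LTB and KLRB1.

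VEGFA was the least class-bound of the genes. In meninges lymphoid cells held 40.5 and 47.7% of its UMIs, B-lineage cells 18.9 and 16.3% and ungated cells 14.9 and 18.3%, whereas in spleen B-lineage cells held 47.5 and 39.7% and lymphoid cells 29.5 and 35.3% of 61 and 68 UMIs. With gates read from thinned cells the mean lymphoid share in meninges was 21.1%, against 44.1% here. By level the order in spleen was the other way, with 22.4 and 27.6 CPM in GZMB+ lymphoid cells and 1.64 and 1.41 CPM in B-lineage cells. The spleen GZMB+ gate was called by edgeR (adjusted p = 5.35e-09), where 20.5% of genes were called higher.

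In meninges edgeR placed VEGFA higher in C1Q+ myeloid (adjusted p = 4.16e-06), IL7R+ lymphoid (adjusted p = 4.52e-05), other lymphoid (adjusted p = 7.82e-05), GZMB+ lymphoid (adjusted p = 0.000285) and plasma cells (adjusted p = 0.0142). In the same order 19.2, 16.0, 7.36, 21.4 and 22.8% of all genes were called higher in these gates. The other lymphoid gate held only 33 and 37 cells. The calls for GZMB+ lymphoid and plasma cells were lost with DESeq2 (adjusted p = 0.084 and adjusted p = 0.0779). The IL7R+ call was lost with gates from 3 markers (edgeR adjusted p = 0.64). The C1Q+ level was 142.2 and 25.7 CPM, and the 9 UMIs of channel 2 all came from 1 cell. Levels in IL7R+ lymphoid cells were 40.9 and 66.8 CPM. Single cells weighed on these levels too, since the highest VEGFA cell of each meningeal channel held 18 UMIs. It was a C1Q+ myeloid cell in channel 1 and an IL7R+ lymphoid cell in channel 2.

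Most LTA UMIs lay in B-lineage cells, and spleen B cells carried more of it. B-lineage cells held 73.7 and 78.1% of its UMIs in meninges and 97.8 and 94.0% in spleen, and within them its level was 20.1 and 23.2 CPM in meninges against 63.4 and 63.3 CPM in spleen. Germinal centre B cells, which mutate and select antibody genes, had 42.3 and 50.5 CPM in meninges and 68.5 and 69.9 CPM in spleen. FCER2+ B cells, gated on the gene of the IgE receptor CD23 of follicular B cells, had 20.8 and 30.3 CPM against 67.8 and 64.8 CPM, and the other B cells 16.6 and 16.0 CPM against 54.5 and 56.5 CPM.

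By edgeR, LTA was higher in germinal centre (adjusted p = 8.20e-10), FCER2+ (adjusted p = 5.18e-08) and other B cells (adjusted p = 0.00175) of meninges than in the mean of the gates, where 22.4, 22.9 and 21.9% of genes were called higher. The same 3 gates were called in spleen by edgeR, with adjusted p = 5.85e-15, 1.87e-14 and 1.10e-07, where 30.6, 19.8 and 18.4% of genes were called higher. LTA was lower in plasma cells of both tissues (edgeR adjusted p = 0.000628 in meninges and 3.60e-06 in spleen), where 13.8 and 14.8% of genes were called lower. The IL7R+ (log2 1.69 ± 0.45, adjusted p = 0.00292) and other lymphoid cells (2.26 ± 0.7, adjusted p = 0.0115) of meninges were also called by edgeR, against 16.0 and 7.36% of genes. The log2 values of germinal centre, FCER2+ and other B cells there were 2.64, 1.91 and 1.02, so a raised LTA level in meninges was not limited to B cells. After thinning, LTA was found in 1.36 and 1.59% of meningeal against 5.87 and 5.43% of spleen B-lineage cells, the same order as before thinning. Myeloid cells of meninges had 1.52 and 2.32 CPM of LTA from 2 and 3 UMIs.

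AREG was also a B-lineage product, in the opposite direction. B-lineage cells held 64.4 and 66.1% of its UMIs in meninges and 97.5 and 93% of only 40 and 43 UMIs in spleen, and their level was 64.9 and 63.0 CPM against 2.20 and 2.09 CPM. Among the B-cell and plasma gates FCER2+ B cells led in meninges with 100.1 and 93.3 CPM, against 2.29 and 4.62 CPM in spleen. Other B cells had 52.6 and 56.5 CPM against 3.24 and 1.53 CPM, and plasma cells 94.2 and 40.0 CPM against 0 and 1.96 CPM.

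By edgeR, AREG in meninges was higher in FCER2+ B (adjusted p = 8.26e-12), plasma (adjusted p = 1.02e-07) and other B cells (adjusted p = 9.89e-05) than in the mean of the gates. In these gates 22.9, 22.8 and 21.9% of genes were called higher. Germinal centre B cells were not called (log2 0.26 ± 0.32, edgeR adjusted p = 0.63). The call for other B cells was lost with DESeq2 (adjusted p = 0.0625). The plasma level leaned on few cells, with 41 of 105 and 27 of 56 UMIs in 1 cell per channel. AREG was lower in GZMB+ lymphoid (edgeR adjusted p = 1.52e-06) and early B cells (edgeR adjusted p = 0.039), where 14.0 and 15.8% of genes were called lower. After thinning, AREG was found in 5.68 and 6.25% of FCER2+ B cells in meninges against 0.448 and 0.707% in spleen. In GZMB+ lymphoid cells, which are not known as its main source, it was found in 0.511 and 0.576% in meninges against 0 and 0% in spleen. The 310 and 422 unthinned spleen cells of that gate held 0 AREG UMIs, which allows up to 3.95 and 3.45 CPM. The 18 dendritic cells of meninges channel 2 had a higher level, 335.4 CPM, and held 10.4% of AREG UMIs there, but 81 of their 92 UMIs came from 1 cell.

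The number of cells that held 50% of a gene's UMIs was small for most genes and largest for LTA. The 50% of IL1B UMIs in the highest cells came from 21 and 23 of the 224 and 251 positive cells in meninges and from 3 and 4 of 9 and 26 in spleen. For XCL1 these were 45 and 54 of 450 and 508 cells in meninges and 13 and 17 of 91 and 86 in spleen. For CCL3 they were 41 and 46 cells against 15 and 28.

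AREG needed 38 and 39 cells in meninges against 12 and 14 in spleen, and VEGFA 40 and 39 against 24 and 18. The spleen numbers are bounded by low totals, 40 and 43 UMIs of AREG and 61 and 68 UMIs of VEGFA. There 26 and 29 of 32 and 35 AREG-positive cells, and 49 and 41 of 54 and 52 VEGFA-positive cells, held 1 UMI. LTA needed the largest number of cells, 63 and 61 of 186 and 198 positive cells in meninges against 210 and 252 of 752 and 891 in spleen. As a share of positive cells that was 33.9 and 30.8% in meninges against 27.9 and 28.3% in spleen, where VEGFA stood at 44.4 and 34.6% and AREG at 37.5 and 40.0%. Most LTA-positive cells held 1 UMI, in 142 and 154 meningeal and 512 and 634 spleen cells. Positive cells averaged 18.6 and 16.8 UMIs of IL1B in meninges, against 2.89 and 1.85 UMIs in spleen. For XCL1 the averages were 9.59 and 10.4 UMIs against 2.54 and 2.00 UMIs.

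**Figure D5:**
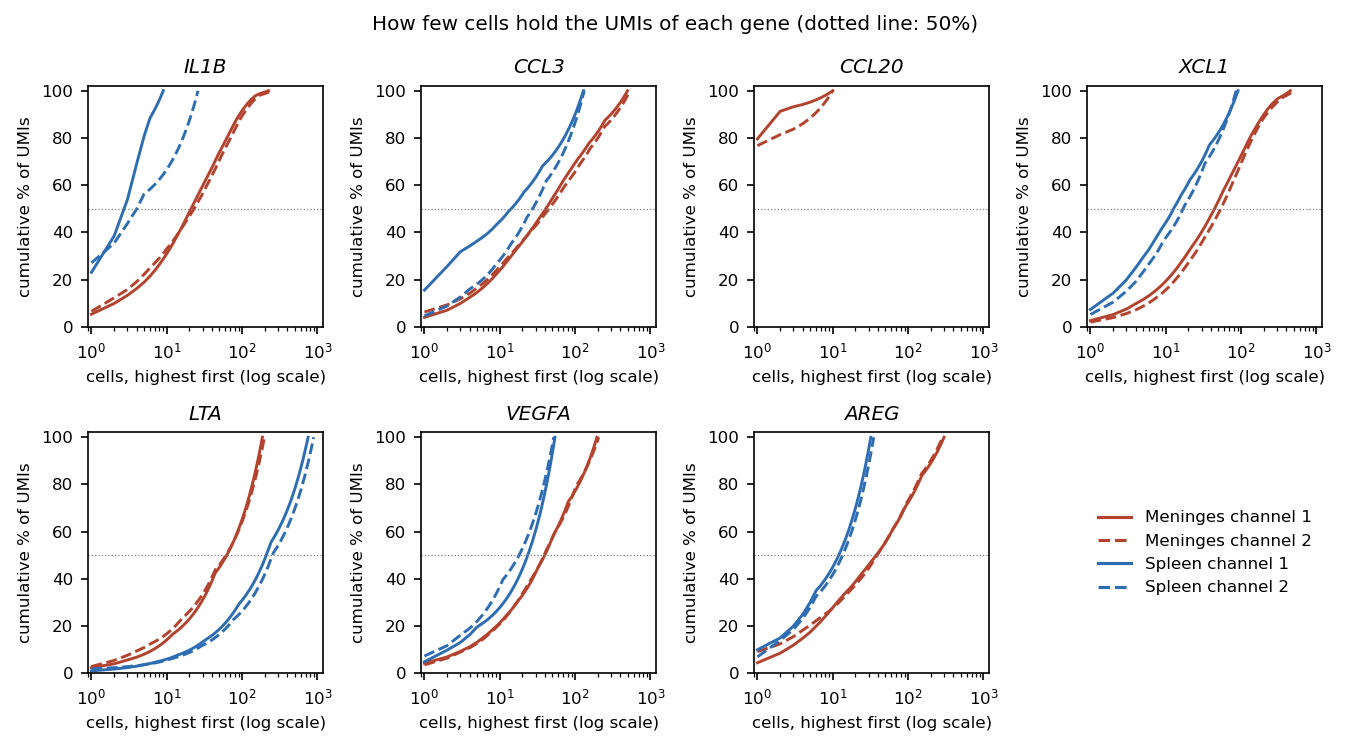
Cumulative percent of each gene's UMIs (vertical) against the number of cells, highest first, on a log axis (horizontal), for meninges (red) and spleen (blue), with solid lines for channel 1 and dashed lines for channel 2. The dotted 50% line is crossed at 1 cell for CCL20 in meninges and at 210 and 252 cells for LTA in spleen.

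The cells above that 50% line lay in the classes named before. For IL1B in meninges they were 12 other myeloid, 7 C1Q+ myeloid and 2 dendritic cells in channel 1, and 8, 4 and 10 such cells with 1 tied cell in channel 2. For XCL1 they were 22 and 31 GZMB+ lymphoid, 10 and 15 ungated and 9 and 3 IL7R+ lymphoid cells. For AREG they were 13 and 15 FCER2+ B cells and 7 and 11 other B cells, and for LTA in spleen 80 and 89 germinal centre, 76 and 76 FCER2+ and 52 and 81 other B cells.

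The tissue difference was also followed within the 5 gates that held at least 50 cells in every channel. A gene enters such a fit only if it has enough UMIs in some channels, so the genes fitted are those high in at least 1 tissue and their number supports nothing. AREG was higher in meninges by 5.66 ± 0.46 (log2, SE) in germinal centre B cells, 4.86 ± 0.20 in FCER2+ B cells, 4.61 ± 0.21 in other B cells and 6.03 ± 0.74 in plasma cells, among 5.81, 27.6, 42.8 and 17.7% of genes called in those gates. Of these, 4.04, 16.1, 23.1 and 11.3% of genes were called higher in meninges and 1.76, 11.5, 19.7 and 6.37% lower, and nothing is read from these shares either. Leaving out 1 channel moved AREG to values from 5.08 to 6.55, from 4.41 to 5.48 and from 4.19 to 5.15 in the first 3 of these gates, the lowest and highest always without a spleen channel. In plasma cells it was 5.13 without spleen channel 1, and without spleen channel 2 no spleen UMI was left to set a fold. LTA was lower by log2 values of -1.31 ± 0.15 in FCER2+ and -1.70 ± 0.14 in other B cells. Its -0.59 ± 0.16 in germinal centre B cells was called, but the call was lost without meninges channel 1 (-0.46), without spleen channel 1 (-0.62) and without spleen channel 2 (-0.55). It was also lost with DESeq2 (-0.59), without the low-count filter (-0.64), with gates from 3 markers (-0.59) and with gates read from thinned cells (-0.88).

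XCL1 was higher by 2.58 ± 0.17 within GZMB+ lymphoid cells, where 29.2% of genes were called (17.1% higher and 12.1% lower), and CCL3 by 0.63 ± 0.11. VEGFA differed there by 0.61 ± 0.23 and was not called. LTA had -1.93 ± 0.48 in that gate, but 24 of the 42 UMIs of spleen channel 2 came from 1 cell, and without that channel the value was -0.01. In B cells, CCL3 differed by 3.66 ± 0.33 in FCER2+ and 2.60 ± 0.25 in other B cells, and VEGFA by 3.34 ± 0.39 and 2.67 ± 0.33. These B-cell levels were low, at 27.8 and 14.6 CPM of CCL3 in FCER2+ B cells of meninges against 1.94 and 1.54 CPM in those of spleen, and the part of free RNA in them was not tested. IL1B was found in 1.01 and 1.35% of other B cells of meninges (medians of 4207.5 and 4171 UMIs), against 0.944 and 0.914% of lymphoid cells (3767 and 3766 UMIs). XCL1 was found in 0.808 and 1.44% of the same B cells, against 0.637 and 0.621% of other myeloid cells (6942 and 6450 UMIs). The part of free RNA in these shares was not tested either, and no tissue difference in B cells is given for IL1B and XCL1.

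The immediate early genes differed between these gates and tissues as well. In FCER2+ B cells they summed to 4303.2 and 4751.1 CPM in meninges against 373.2 and 428.1 CPM in spleen, and in GZMB+ lymphoid cells to 5705.1 and 5681.3 CPM against 1173.3 and 1140.8 CPM. Within meningeal FCER2+ B cells thinned to 1000 UMIs, cells with an AREG UMI averaged 9.31 and 7.46 immediate early UMIs per 1000, against 4.19 and 4.82 in cells without one. Within meningeal GZMB+ lymphoid cells the averages were 9.24 and 9.95 with XCL1 against 5.35 and 5.13 without it, and 9.06 and 7.92 with CCL3 against 5.51 and 5.77 without it. In C1Q+ myeloid cells the order turned, with 11.1 and 15.9 in cells with IL1B against 21.9 and 25.7 in cells without it. In other myeloid cells it did not, with 8.99 and 7.94 in cells with IL1B against 7.85 and 7.09 in cells without it. For LTA in FCER2+ B cells the channels overlapped, at 5.25 and 4.80 against 4.47 and 4.99. The part of these genes in the levels of the cytokines was not tested.

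Other genes of the same or related pathways were counted over all cells, beside a median log2 difference of 0.01 and 31.1% higher and 27.1% lower calls over all genes. Of an IL-1 system list that also named IL6, IL6R, IL10 and OSM, 10 of 12 tested genes were higher and 0 lower in meninges (median 2.81). NLRP3, a sensor of the inflammasome, rose by 3.15 ± 0.14 (edgeR adjusted p = 5.55e-07) to 16.9 and 19.3 CPM in meninges against 2.09 and 2.09 CPM in spleen. Its adapter PYCARD had 137.3 and 134.6 CPM against 49.4 and 57.7 CPM (edgeR adjusted p = 7.10e-06), and the protease CASP1, which cuts the IL1B precursor, 81.5 and 83.5 CPM against 57.8 and 59.8 CPM (edgeR adjusted p = 0.000336).

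Of the other chemokines 8 of 9 were higher and 0 lower (median 4.15). CCL4L1, a CCL4-like gene with the same sequence problem as CCL3, had 182.9 and 187.4 CPM against 12.0 and 9.50 CPM, and CCL5 953.9 and 963.3 CPM against 160.6 and 196.1 CPM. Of chemokine receptors 9 of 14 were higher and 3 lower (median 1.59), among them CCR7, the lymph node homing receptor, at 2.81 ± 0.10 and CCR6, the receptor of CCL20, at -1.67 ± 0.08. CCR6 had 23.4 and 21.3 CPM in meninges against 78.3 and 68.4 CPM in spleen, in whose tables its ligand CCL20 was not listed.

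Of the TNF family 12 of 15 were higher and 1 lower (median 2.75). The 1 that fell was LTB, the membrane partner of LTA, at -1.18 ± 0.07 (edgeR adjusted p = 2.39e-06), with 364.3 and 365.7 CPM in meninges against 850.8 and 854.2 CPM in spleen. Within B-lineage cells LTB was 492.9 and 487.2 CPM against 927.3 and 930.3 CPM, the same direction as LTA. TNF, which lies between LTB and LTA in the RefSeq gene order of macaque (assembly T2T-MMU8v2.0), did not share it, with 10.4 and 8.77 CPM in meningeal and 11.9 and 8.57 CPM in spleen B-lineage cells. TNFRSF1B, a TNF receptor, rose by 3.17 ± 0.08.

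Of a list of VEGF and EGF family genes, their receptors, other growth factors and ADAM17, 8 of 13 were higher and 1 lower (median 2.11). TGFB1, a growth factor of another family, stood at 2.11 ± 0.07. ADAM17, the protease that releases AREG from the membrane, stood at -0.35 ± 0.08. Of hypoxia response genes, a group that shares control by low oxygen with VEGFA, 13 of 15 were higher and 2 lower (median 0.73), from NDRG1 at 3.08 ± 0.09 to PDK1 at -0.34 ± 0.10. Of a list of type 2, type 17, interferon and other cytokines 5 of 6 were higher and 0 lower (median 3.22). IFNG stood at 3.19 ± 0.10, with 29.5 and 31.2 CPM in meninges against 3.53 and 3.32 CPM in spleen. All 13 immediate early genes tested were higher (median 3.92). The lists were drawn up with earlier results of these data known, and in sums over all cells a changed mix of classes and a changed level per cell cannot be told apart.

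Over the 37 sums of gates with at least 20 cells per channel, the genes whose pattern was most like each member were found by Pearson's r of log2(CPM + 10). For IL1B they included G0S2 (0.997) and CXCL16 (0.995), for CCL3 CCL4L1 (0.920), for XCL1 KLRB1 (0.912) and CD3E (0.912), and for AREG PIM3 (0.827) and NR4A1 (0.767). LTA was most like the ribosomal protein genes RPL28 (0.834) and RPS27A (0.826), and VEGFA like RGS1 (0.696). The points share libraries and depth, so the values are a description. In the RefSeq gene order IL1B lies beside IL1A and AREG between BTC and EREG.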

How the data were processed

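As deposited, each file is a table of raw UMI counts, genes by cell barcodes. The authors counted with Cell Ranger and list the build mm10 for every library, per the submitters' processing notes. Which macaque reference was used is not given in the sources used. Barcodes under 300 genes or over 10% mitochondrial UMIs were dropped (Python 3.11.15, scanpy 1.11.5). Scrublet removed 39 cells from each meningeal channel. It marked 0 spleen cells, a sign that it failed there, and spleen doublets stayed in.

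A cell went to the class, of 8, with the most of its 8 markers detected, at least 2 and without a tie, and B, lymphoid and myeloid cells were split by further markers. The members, markers and lists were chosen with earlier results of these data known. UMIs were summed per channel and gate and tested with edgeR 4.0.16 in R 4.3.3 (quasi-likelihood test, threshold 0.05), between tissues in gates with at least 50 cells in every channel, and between gates within a tissue, with the channel as a block, in gates with at least 20. The gate test compares a gate with the mean of the others, 11 gates in meninges and 7 in spleen. Thinning drew 1000 UMIs per cell and left out 365 and 425 meningeal and 2069 and 1572 spleen cells below that number. Intervals are exact Poisson or binomial intervals, and a count of 0 was read as allowing 3 counts. List genes named are up to 3 rises and 3 falls among called genes whose mean log2 CPM was 3 or more, beside genes named for a tie to a member, which were chosen after their values were seen (TNF). Likeness used genes with at least 100 UMIs. The 7 members were all matched to RefSeq names. Alternatives were DESeq2 1.42.0, other filters and gates, leaving out each channel and a block.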

Additional observations from a re-analysis of the deposited data

How the results depend on the processing

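Over all cells the 7 genes kept direction and call under every one of the 10 alternatives run, and the number of genes called, 7235, ranged from 5563 to 7685. Channels with the same number did not deviate together (r = -0.128 over 12441 genes), so the numbers were not taken to pair the channels; with the channel number as a replicate block 7110 genes were called, and with crossed numbers, tried after the data were seen, 7685. Within gates the replicate block gave 639 calls in germinal centre B, 2047 in FCER2+ B, 4624 in other B, 960 in plasma and 2526 in GZMB+ lymphoid cells, against 540, 2635, 4410, 1162 and 2665 without it. DESeq2, added after seeing the data, called 293, 1243, 2594, 543 and 1276 in the same order. Without a filter on low counts, also added, germinal centre B cells gave 186 calls, and with gates read from cells thinned to 1000 UMIs they gave 50 and FCER2+ B cells 1097. Leaving out a channel gave 301 to 930 calls in germinal centre B cells and 1690 to 2609 in FCER2+ B cells.

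The leading class's mean share of UMIs fell for several genes with gates from 3 markers and, given second, with gates read from thinned cells. In meninges, lymphoid shares were then 63.5 and 55.2% for CCL3, 57.7 and 29.2% for CCL20, 59.6 and 42.6% for XCL1 and 31.9 and 21.1% for VEGFA, and B-lineage shares 61.3 and 49.9% for AREG. In spleen they were 62.1 and 67.0% for CCL3, 80.6 and 78.4% for XCL1, 88.3 and 90.2% for AREG and 30.8 and 17.2% for IL1B in dendritic cells. LTA moved with thinned gates only, to 60.1% in meninges and 83.4% in spleen. The stricter cell filter moved CCL3 to 68.6% and CCL20 to 89.5% in meninges, and the cells holding 50% of UMIs to 2.5 for CCL20 in meninges and 11 for AREG in spleen. XCL1 in meningeal plasma cells turned to -2.36 with gates from 3 markers, and its call was lost when ungated cells were added as a class. Of the values of single genes within gates, 161 stayed the same, 13 lost and 1 gained a call, and of the gate tests 164 stayed the same and 8 lost a call. The cause was not tested. The gate tests could not be fitted without a channel, since no residual degrees of freedom remain. Doublets were not removed in spleen, gates of few cells limit the dendritic and spleen myeloid values, and shallow spleen cells limit shares of cells with a UMI.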
